A study of Mus musculus with 18 samples.

Results

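The interferon and major histocompatibility complex (MHC) gene families were described in sorted bone marrow progenitors of mice with a JAK2V617F-driven myeloproliferative neoplasm (MPN). The families comprised the Irf, Ifi, Ifn, Isg, Oas, Gbp and H2 genes together with Igtp, Iigp1, Irgm1, Tap2 and Tapbp, chosen by gene symbol. The deposited values cover 10335 probe sets, a probe set being the group of probes that reads 1 transcript. Of the 9636 genes with a single symbol among them, 57 belonged to the families. B2m, Tap1, Mx1 and Mx2 also fell under the choice but had no single-symbol probe set among the values used, and are not analysed here. Each of the 57 genes had a single probe set in these values, so the rule of taking the probe set of highest mean made no choice.

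The mice were Balb/c recipients of marrow transduced with a retrovirus carrying JAK2V617F and GFP, so that GFP+ cells (JAK2V617F+) and GFP- cells (JAK2V617F-) came from the same marrow. Marrow was harvested from several mice per experiment and cultured for 16 h in IL-3 (50 ng/mL) and SCF (100 ng/mL) without a blocking antibody (untreated), with an antibody blocking TNF receptor 1 (TNFR1 BA) or with an antibody blocking TNF receptor 2 (TNFR2 BA), each at 10 μg/mL. Lin-Kit+ cells were then sorted by GFP into 6 groups of 3 arrays, and the 3 replicate numbers were read as 3 independent experiments. Both genotypes were therefore exposed to the same culture, and JAK2V617F was expressed from a retrovirus rather than from its own locus. Untreated JAK2V617F+ replicate 3, which failed the quality standards of the study, was left out of every fit (median log2 signal 6.05, against 7.41 to 7.75 in the other arrays), so that group held 2 arrays and 17 arrays were compared in all.

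Interferons bind paired receptor chains (Ifnar1 and Ifnar2 for type I interferon, Ifngr1 and Ifngr2 for interferon gamma) that signal through Janus kinases to STAT proteins and Irf transcription factors. These bind short DNA elements in front of antiviral genes, immune GTPases and MHC genes. MHC class I chains present peptides from inside the cell on nearly all nucleated cells, whereas class II chains present peptides taken up from outside, mainly on dendritic cells, macrophages and B cells. Balb/c mice carry an intact H2-Ea gene and so can make both the I-A (H2-Aa with H2-Ab1) and the I-E (H2-Ea with H2-Eb1) class II molecules.

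The promoters of 3 class II genes and of Irgm1, an interferon-induced GTPase, are printed because they hold the short elements that were counted over the families. Of these 3 class II genes, only H2-Aa differed between genotypes at an adjusted p under 0.05 in limma. Each is the 300-base RefSeq window on build GRCm38.p6 from 250 bases before to 50 bases after the transcription start, read 5′ to 3′ on the strand of the gene. Capitals mark matches, on either strand, to GAAANNGAA (part of the interferon-stimulated response element), TTCNNNGAA (the interferon gamma-activated site) or ATTGG (the inverted CCAAT box, which is the Y box of class II promoters).
H2-Aa, chr17:34287774-34288073, minus strand: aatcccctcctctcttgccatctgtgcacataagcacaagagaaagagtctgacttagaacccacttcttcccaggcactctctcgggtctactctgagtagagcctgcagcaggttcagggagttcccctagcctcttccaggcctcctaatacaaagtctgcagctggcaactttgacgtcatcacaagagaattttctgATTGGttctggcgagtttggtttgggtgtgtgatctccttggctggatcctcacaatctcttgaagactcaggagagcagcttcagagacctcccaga
H2-DMb2, chr17:34144999-34145298, plus strand: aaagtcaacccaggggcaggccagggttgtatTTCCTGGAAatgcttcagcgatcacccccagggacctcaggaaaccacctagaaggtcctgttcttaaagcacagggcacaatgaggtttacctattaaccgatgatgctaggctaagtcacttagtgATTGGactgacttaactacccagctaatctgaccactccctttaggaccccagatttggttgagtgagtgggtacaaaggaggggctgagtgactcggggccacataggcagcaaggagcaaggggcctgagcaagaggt
H2-Eb1, chr17:34305617-34305916, plus strand: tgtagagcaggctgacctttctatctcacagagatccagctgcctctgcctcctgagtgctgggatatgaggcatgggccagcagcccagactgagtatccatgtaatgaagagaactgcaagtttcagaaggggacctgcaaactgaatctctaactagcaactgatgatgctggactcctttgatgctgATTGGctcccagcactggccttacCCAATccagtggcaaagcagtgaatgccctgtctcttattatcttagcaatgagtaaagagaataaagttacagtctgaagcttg
Irgm1, chr11:48871371-48871670, minus strand: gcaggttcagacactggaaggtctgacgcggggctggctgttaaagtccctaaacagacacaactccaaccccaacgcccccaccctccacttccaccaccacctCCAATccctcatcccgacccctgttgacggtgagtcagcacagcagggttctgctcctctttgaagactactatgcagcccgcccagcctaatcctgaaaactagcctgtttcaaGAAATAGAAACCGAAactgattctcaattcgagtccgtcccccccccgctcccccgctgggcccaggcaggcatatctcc
ATTGG began 48 bases before the start of H2-Aa, 90 bases before that of H2-DMb2, and 59 and 35 bases before that of H2-Eb1 (there once on each strand). The promoter of H2-DMb2 also held a TTCNNNGAA. In Irgm1, 2 overlapping GAAANNGAA matches began 30 and 24 bases before the start, and an ATTGG on the other strand began 145 bases before it.

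Promoter windows were listed for 48 of the 57 genes. ATTGG was found in 6 of 7 class II promoters, which belong to 6 genes, against 37.4% of all 32851 promoters, and H2-Ab1 and H2-Ea had no entry. It was also found in 4 of 4 class I promoters, so it was not particular to class II. These 4 belong to 3 genes, with overlapping windows of H2-K1 among them. GAAANNGAA was found in 6 of 8 GTPase promoters and in 0 of 7 class II and 0 of 4 class I promoters, against 8.56% of all promoters. This pattern is strict and covers only part of the interferon-stimulated response element. A promoter without it may still hold another form of the element, and other forms were not counted. TTCNNNGAA was found in 17 of 57 promoters of the families, against 8.30% of all. A match is a description of the letters and not a test of binding.

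**Figure D1:**
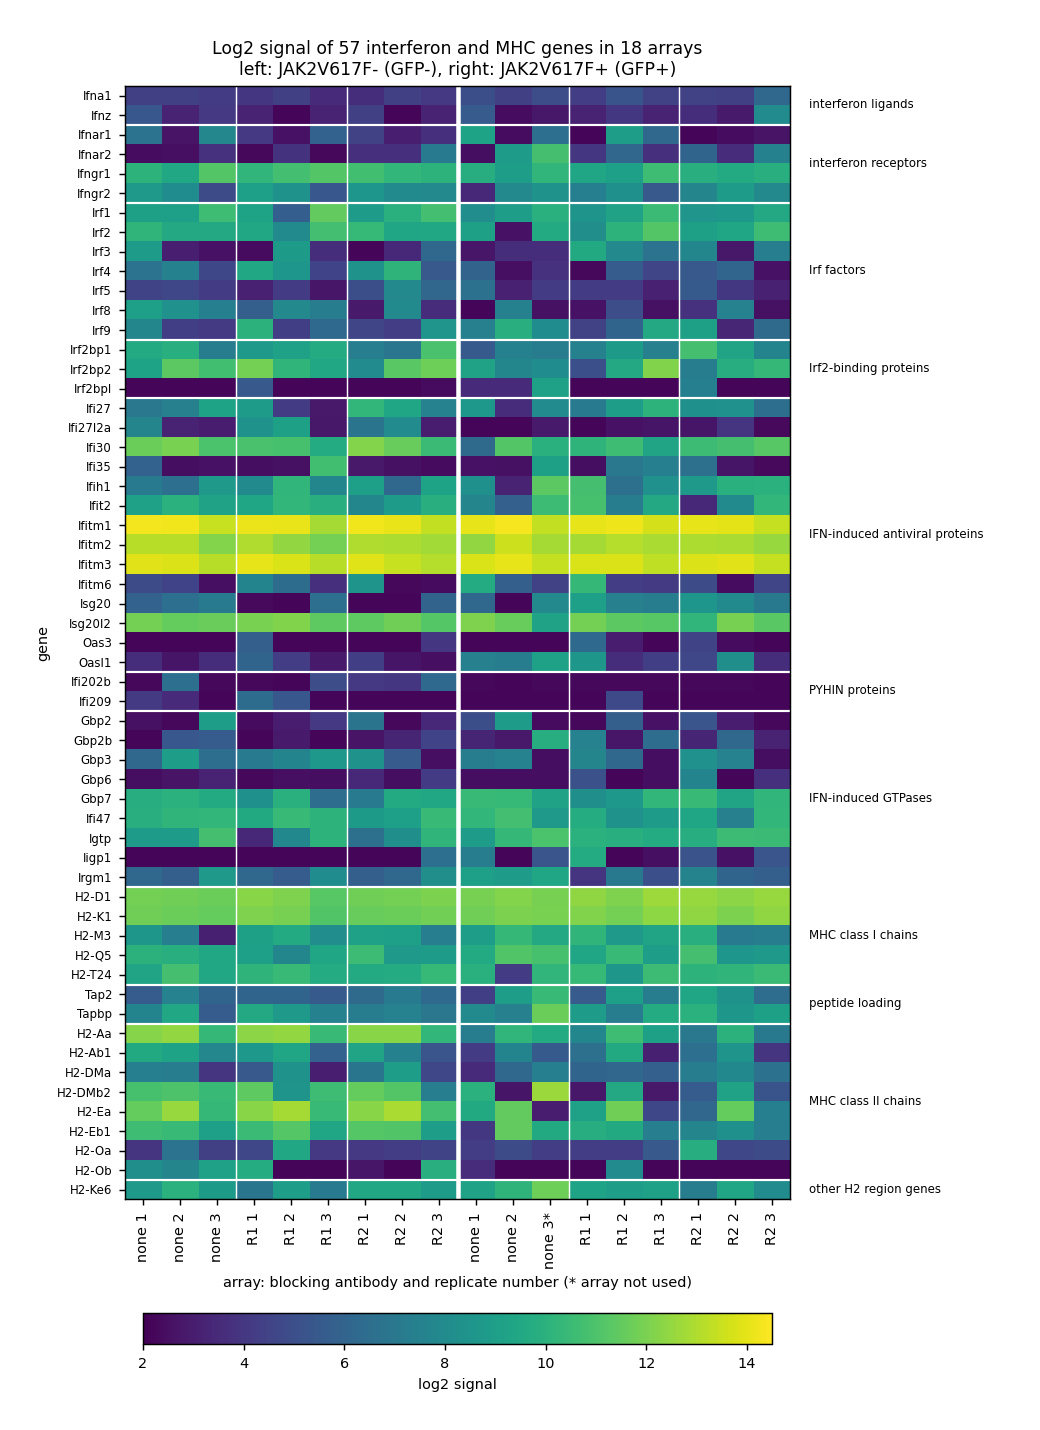
Log2 signal of each of the 57 genes (rows, grouped by role) in each of the 18 arrays (columns, by genotype, blocking antibody and replicate number, with the array that was left out marked by an asterisk). Ifitm1, Ifitm2, Ifitm3, H2-D1 and H2-K1 were high on every array, whereas Irf2bpl lay near the lowest value on 12, Ifi209 on 12, Oas3 on 11 and Iigp1 on 10 of the 17 arrays used.

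The families spanned nearly the whole range of signals. Signals are log2 values with a shared lowest value of 2.22, and they carry no detection call, so a level near that value has no order and a difference from it may be understated. Of the 57 genes, 39 lay above the lowest value by more than 0.05 on all 17 arrays. Levels of different genes come from different probes and are given only to describe each gene on its own scale. The interferon-induced transmembrane proteins Ifitm1, Ifitm2 and Ifitm3, which block entry of viruses into cells, were bright on every array. Ifitm1 had the highest mean of the families, 13.91, and lay between 12.84 and 14.31. Ifitm3 had the narrowest range, from 13.12 to 14.03, and H2-DMb2 the widest, from 2.69 to 11.53. The lowest mean, 2.88, belonged to Irf2bpl, which stood within 0.05 of the lowest value on 12 of 17 arrays.

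The array values varied strongly between replicates. Arrays of the same group had a median standard deviation of 1.59 over the 57 genes and of 1.45 over all 10335 probe sets, both in log2 units. Comparisons were made with limma over all probe sets with Benjamini-Hochberg adjustment, and a gene was called when its adjusted p was under 0.05. Counts at an unadjusted p under 0.05 are also given, beside the share of all probe sets that reached it.

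The first comparison asked how JAK2V617F+ cells differed from JAK2V617F- cells, as the mean over the 3 treatments. Of the 8 MHC class II chains, H2-Aa was lower in JAK2V617F+ cells and called, 4 others had negative differences at an unadjusted p under 0.05, and H2-DMa (-0.19) and H2-Oa (0.11) were near 0. The classical class I genes H2-D1 and H2-K1 had differences of 0.45 and 0.41, which were not called. H2-Aa was the only one of the 57 genes called, where 0.358% of all probe sets were called (37 of 10335). At an unadjusted p under 0.05, 11 genes were lower in JAK2V617F+ cells, where 5.08% of all probe sets were, and 4 were higher, where 5.21% of all probe sets were. The 11 lower genes were H2-Aa, H2-DMb2, Ifi27l2a, H2-Ea, Irf4, H2-Eb1, Ifi202b, Ifi30, Irf8, Ifngr1 and H2-Ob, and the 4 higher genes were Oasl1, H2-D1, Isg20 and H2-K1. The signals of H2-D1 and H2-K1 were nearly the same on every array, so they are not separate observations. The median difference of the 57 genes was 0.12, against 0.00 over all probe sets, and 31 differences were positive and 26 negative.

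**Figure D2:**
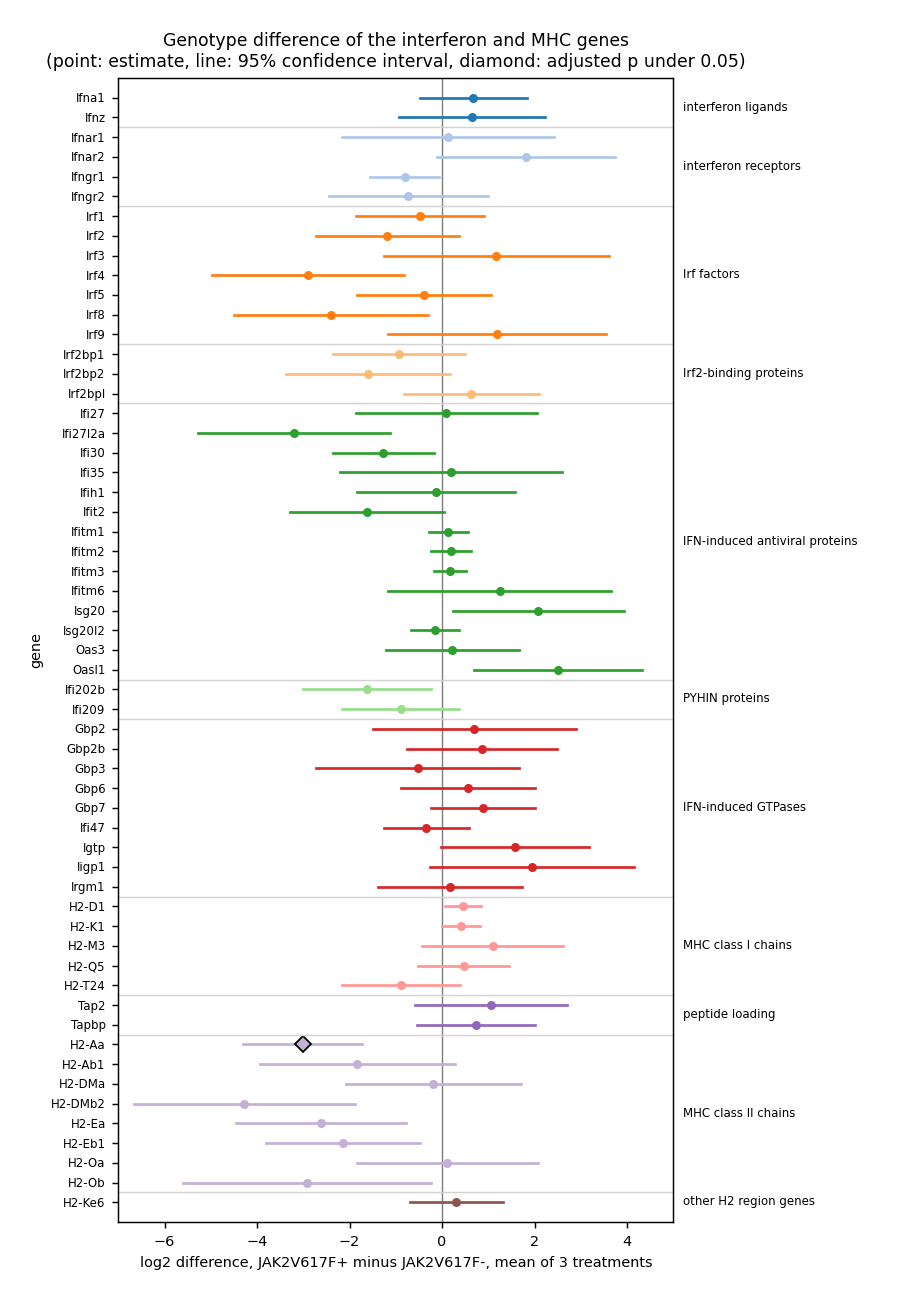
Log2 difference of JAK2V617F+ minus JAK2V617F- cells, as the mean over 3 treatments (horizontal axis), for each of the 57 genes grouped by role, with 95% confidence intervals from limma on 17 arrays. Of the 8 class II chains, 7 lay below 0, and H2-Aa (diamond, -3.02) was the only gene with an adjusted p under 0.05.

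H2-Aa encodes the alpha chain of I-A. The array design marks its probe set as liable to read other transcripts too, so the part of H2-Aa in this signal is uncertain. In JAK2V617F- cells the log2 signals of H2-Aa were 12.23, 12.45 and 10.31 in untreated replicates 1, 2 and 3. They were 12.30, 12.46 and 10.48 under TNFR1 BA and 12.28, 12.29 and 10.25 under TNFR2 BA. Replicate 3 was the lowest in each of these treatments. In JAK2V617F+ cells the log2 signals of H2-Aa were 7.30 and 10.25 in untreated replicates 1 and 2, 7.73, 10.62 and 9.12 under TNFR1 BA and 7.01, 10.04 and 7.07 under TNFR2 BA. H2-Aa was lower in the JAK2V617F+ array of all 8 pairs of the same experiment and treatment, although the genotypes overlapped across experiments, with replicate 2 of JAK2V617F+ cells near replicate 3 of JAK2V617F- cells. The mean was 8.64 ± 1.53 (SD, n = 8 arrays) in JAK2V617F+ cells and 11.67 ± 1.0 (SD, n = 9 arrays) in JAK2V617F- cells. In both genotypes these arrays come from only 3 experiments. How many of all probe sets have the same sign in every pair was not counted, here or for the genes below. The main fit counts each array as independent and does not use the pairing of arrays by experiment. The limma difference was -3.02 on the log2 scale, or 8.10-fold lower, with a standard error of 0.61, a 95% confidence interval from -4.30 to -1.73 and an adjusted p of 0.0352.

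The size of this difference varied between experiments. Within experiments, the mean difference of the pairs was -4.93 in replicate 1, -2.10 in replicate 2 and -2.27 in replicate 3. With the replicate number as a block, H2-Aa (-3.18, adjusted p = 0.00165) and H2-Ea (-2.90, adjusted p = 0.0266) were called by limma. The call of H2-Aa was lost when any 1 experiment was left out. The difference shrank to -1.82 without replicate 1 (adjusted p = 0.462, limma), and it grew to -3.72 without replicate 2 (0.105) and to -3.51 without replicate 3 (0.0747), with fewer arrays in each fit. It was kept when 1 of 6 arrays was left out, which were replicate 3 of each JAK2V617F- group and replicate 2 of each JAK2V617F+ group (adjusted p from 0.0122 to 0.0261). It was lost when any 1 of the other 11 arrays was left out (0.0553 to 0.0884).

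H2-Ea and H2-Eb1 encode the chains of I-E. The probe set of H2-Ea carries the same kind of mark as that of H2-Aa. H2-Ea ranged from 10.31 to 12.91 (median 12.26) in JAK2V617F- cells and from 4.69 to 11.81 (median 9.38) in JAK2V617F+ cells, and was lower in the JAK2V617F+ array of 8 of 8 pairs. H2-Eb1 ranged from 9.03 to 11.22 (median 10.53) in JAK2V617F- cells and from 4.02 to 11.49 (median 7.98) in JAK2V617F+ cells. The genotypes overlapped for both genes, and replicate 2 was the highest JAK2V617F+ array of H2-Ea in each treatment. The difference was -2.62 ± 0.88 (SE) for H2-Ea (adjusted p = 0.301, limma) and -2.15 ± 0.79 for H2-Eb1 (adjusted p = 0.347). H2-Eb1 was called without untreated JAK2V617F+ replicate 2, its highest JAK2V617F+ array, with a difference of -3.39 (adjusted p = 0.0119), whereas its difference was -0.90 without untreated JAK2V617F+ replicate 1, its lowest. H2-Ab1, the beta chain of I-A, had a difference of -1.83 ± 1.0 (adjusted p = 0.534) and was lower in 6 of 8 pairs.

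H2-DMb2 is a chain of H2-DM, which loads peptides onto class II molecules in endosomes. It ranged from 7.32 to 11.53 (median 10.87) in JAK2V617F- cells and from 2.69 to 9.96 (median 5.44) in JAK2V617F+ cells, the lowest values of the latter being 2.69 in untreated replicate 2 and 2.83 and 2.85 under TNFR1 BA in replicates 1 and 3. Its difference of -4.28 ± 1.13 (SE) was the largest among the 57 genes in size, and it was not called (adjusted p = 0.140, limma). It was called without untreated JAK2V617F+ replicate 1 (-5.49, adjusted p = 0.0250) and without TNFR1 BA JAK2V617F+ replicate 2 (-5.02, adjusted p = 0.0380). For H2-DMa, the partner chain, the difference was -0.19 (95% confidence interval -2.07 to 1.70), which does not bar differences of several fold either way. H2-Oa and H2-Ob form H2-DO, which restrains H2-DM. H2-Ob was within 0.05 of the lowest value on 6 of 8 JAK2V617F+ arrays and 3 of 9 JAK2V617F- arrays and had a difference of -2.92 ± 1.28, whereas that of H2-Oa was 0.11 ± 0.93.

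**Figure D3:**
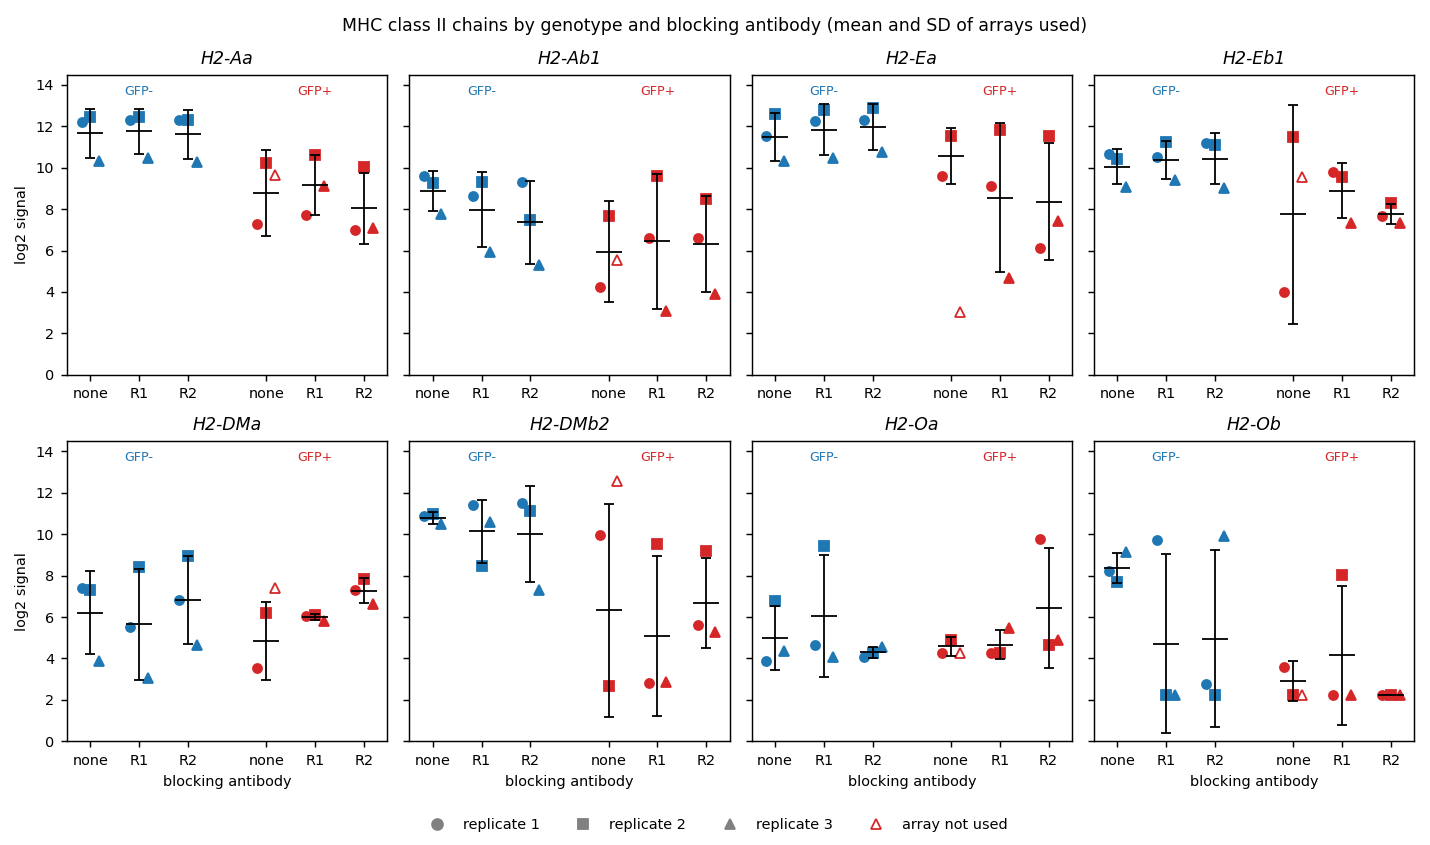
Log2 signal of the 8 class II chains (vertical axis) in JAK2V617F- (GFP-, blue) and JAK2V617F+ (GFP+, red) cells without antibody (none), with TNFR1 BA (R1) or with TNFR2 BA (R2); symbols give the replicate number, horizontal bars the mean and whiskers the SD of the arrays used, and the open triangle is the array that was left out. H2-Aa of every JAK2V617F+ array lay below the JAK2V617F- array of the same experiment and treatment.

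Among the 8 class II chains, 7 had negative differences, with a median difference of -2.38 against 0.00 over all probe sets. Of the 8, 1 was called, where 0.358% of all probe sets were. Lower at an unadjusted p under 0.05, where 5.08% of all probe sets were, stood 5 of the 8. The 8 chains were read on the same arrays, and the roles were chosen with earlier results of these data known. These counts are therefore a description and not a test of the chains as a set. The mean log2 signal of the 8 chains per array lay between 7.03 and 9.68 in JAK2V617F- cells and between 5.08 and 8.70 in JAK2V617F+ cells. By experiment, that mean was 9.15 against 6.14 in replicate 1, 9.26 against 7.86 in replicate 2 and 7.64 against 5.34 in replicate 3, so JAK2V617F+ cells were lower in each. In bulk samples, fewer cells of a type and less RNA per cell cannot be told apart.

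Among markers of other cell types, only mast cell, basophil and erythroid genes were called between genotypes. Of 13 measured genes of a list of monocyte, macrophage and dendritic cell markers, 8 had negative differences and none was called by limma. Lower at an unadjusted p under 0.05, where 5.08% of all probe sets were, stood 3 of them. These were Siglech of plasmacytoid dendritic cells (-2.79), Ly86 (-3.58) and Mrc1 (-2.50). The 5 positive differences were those of Cd68 (0.86), Ccr2 (0.75), Cd14 (0.49), Adgre1 (0.40) and Clec4a2 (0.005). The mean of this list per array ranged from 5.27 to 7.77 in JAK2V617F- cells and from 5.08 to 6.87 in JAK2V617F+ cells. Siglech and Cx3cr1 were each near the lowest value on 11 of 17 arrays. All 5 measured B cell markers had negative differences, none with an unadjusted p under 0.05, and their mean ranged from 2.40 to 6.92 in JAK2V617F- cells and from 2.55 to 5.16 in JAK2V617F+ cells, with Cd79a near the lowest value on 12 arrays and Ebf1 on 13. Mast cell and basophil markers went the other way, with 7 of 7 higher in JAK2V617F+ cells. Of these 5 were called, where 0.358% of all probe sets were, and array means ran from 11.09 to 12.28 against 5.86 to 8.23 in JAK2V617F- cells. All 6 measured erythroid markers had positive differences and 2 were called, beside the same 0.358% of all probe sets. Of the T and NK cell list 2 genes were measured and none was called, with Gzma at -3.10, and of the lineage-positive list 4 were measured, none with an unadjusted p under 0.05. Kit itself, the marker of the sort, ranged from 3.71 to 9.95 and differed by 0.21 between genotypes (SE 0.93). The part of these populations in the class II difference was not tested.

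The classical class I chains H2-D1 and H2-K1 present peptides to CD8 T cells. H2-D1 ranged from 11.24 to 12.28 (median 11.89) in JAK2V617F- cells and from 11.93 to 12.66 (median 12.37) in JAK2V617F+ cells. H2-K1 ranged from 11.13 to 12.09 (median 11.70) and from 11.80 to 12.42 (median 12.08). The genotypes overlapped, and each gene was lower in the JAK2V617F+ array of 1 of 8 pairs. The signals of the 2 genes correlated by 0.988 over the 17 arrays, and H2-D1 lay 0.08 to 0.30 above H2-K1 on each. The differences were 0.45 ± 0.19 (SE) for H2-D1 (adjusted p = 0.412, limma) and 0.41 ± 0.19 for H2-K1 (adjusted p = 0.482), and neither was called. Both were read by probe sets that the array design marks as liable to cross-hybridise, so the part of each gene in these signals is uncertain. Marks for cross-hybridisation or shared probes were carried by 9 genes of the families. The others were H2-Aa, H2-Ea, H2-DMa, Irf2, Ifi35, Ifi202b and Ifna1, to which the same limit applies. The nonclassical chains H2-M3 (1.10 ± 0.72), H2-Q5 (0.47 ± 0.47) and H2-T24 (-0.89 ± 0.61) had unadjusted p-values over 0.05. Tap2, a subunit of the peptide transporter, and Tapbp, which bridges that transporter to class I, differed by 1.06 ± 0.78 and 0.73 ± 0.60.

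Among the transcription factors, Irf4 and Irf8, which direct the development of dendritic cells, macrophages and B cells, had lower signals in JAK2V617F+ cells. Irf4 ranged from 4.52 to 10.11 (median 7.50) in JAK2V617F- cells and from 2.25 to 6.07 (median 5.05) in JAK2V617F+ cells. Irf8 ranged from 2.91 to 9.07 (median 7.37) and from 2.22 to 7.54 (median 3.18). Each was lower in 7 of 8 pairs, and the genotypes overlapped. The differences were -2.89 ± 0.99 (SE) for Irf4 (adjusted p = 0.308, limma) and -2.40 ± 1.0 for Irf8 (adjusted p = 0.414). The mediators of the interferon response itself, Irf1 (-0.47 ± 0.66), Irf3 (1.17 ± 1.16) and Irf9 (1.18 ± 1.12), and also Irf2 (-1.19 ± 0.74) and Irf5 (-0.39 ± 0.68), had unadjusted p-values over 0.05, with intervals that include differences of more than 1 log2 unit either way for Irf3, Irf5 and Irf9.

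Ifngr1, the ligand-binding chain of the interferon gamma receptor, was lower in the JAK2V617F+ array of 8 of 8 pairs. Ifngr1 ranged from 9.44 to 11.15 (median 10.27) in JAK2V617F- cells and from 8.95 to 10.64 (median 9.71) in JAK2V617F+ cells. This difference of -0.81 ± 0.35 (SE) was not called (adjusted p = 0.438, limma). Ifngr2 (-0.73 ± 0.82), Ifnar1 (0.12 ± 1.09) and Ifnar2 (1.82 ± 0.91) had unadjusted p-values over 0.05, as had the ligands. Ifna1 ranged from 3.56 to 6.22 over the 17 arrays and Ifnz from 2.22 to 8.02.

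The interferon-induced effectors did not move as one. Of 14 antiviral genes, 9 differences were positive and 5 negative, and of 9 GTPases, 7 were positive and 2 negative, with 0 GTPases at an unadjusted p under 0.05. Oasl1, a member of the oligoadenylate synthetase family, ranged from 2.51 to 6.05 (median 3.65) in JAK2V617F- cells and from 3.65 to 8.62 (median 5.98) in JAK2V617F+ cells, a difference of 2.5 ± 0.86 (SE, adjusted p = 0.308, limma). Isg20, an exonuclease that degrades RNA, differed by 2.08 ± 0.88 (adjusted p = 0.424). Ifi27l2a ranged from 2.78 to 9.11 (median 6.79) in JAK2V617F- cells and from 2.22 to 3.91 (median 2.46) in JAK2V617F+ cells, with a difference of -3.21 ± 0.99 (adjusted p = 0.25). Its JAK2V617F- signals were high in replicate 1 throughout and in replicate 2 under both antibodies, and at or under 2.98 in replicate 3. Ifi30, a lysosomal thiol reductase that unfolds antigens for class II presentation, differed by -1.27 ± 0.52 (adjusted p = 0.406) and by -2.07 without untreated JAK2V617F+ replicate 2, when it was called (adjusted p = 0.0202). Without untreated JAK2V617F+ replicate 1, the lowest array of Ifi30 at 6.34, its difference was only -0.46 (adjusted p = 0.588). Ifi202b, a DNA-binding PYHIN protein, stayed between 2.22 and 2.27 on all 8 JAK2V617F+ arrays and reached 6.58 in JAK2V617F- cells, with a difference of -1.62 ± 0.66 (adjusted p = 0.404).

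Genes of the same pathways outside the families showed no called difference between genotypes. Of 36 measured genes of interferon signalling, 0 were called by limma. At an unadjusted p under 0.05, Irgm2 and Lgals3bp were higher, where 5.21% of all probe sets were, and Stat3 and Dtx3l lower, where 5.08% were. These counts, 2 of 36 in each direction, lay near those shares. Stat3 stood at 2.22 on every JAK2V617F+ array and near the lowest value on 11 of the 17 arrays. The list had a median difference of 0.21. Of 19 measured genes of antigen processing, 0 were called. Only Ctss, which encodes the protease cathepsin S that trims the class II invariant chain, had an unadjusted p under 0.05 (-1.27 ± 0.50, adjusted p = 0.391, limma). That is 1 of 19 genes, beside 5.08% of all probe sets that were lower at this level. Psmb8 and Psmb9, immunoproteasome subunits that feed class I, had means of 12.44 and 12.50 and differences of -0.34 ± 0.27 and -0.20 ± 0.20.

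Within single treatments, 0 of the 57 genes were called between genotypes by limma. Among untreated cells, 8 genes had an unadjusted p under 0.05, where 7.32% of all probe sets did, and 0.0774% of probe sets were called. Oasl1 (4.04 ± 1.60, SE) and H2-M3 (3.31 ± 1.35) were the higher of these. The 4 lower ones of smallest p were Ifi30 (-2.79 ± 0.97), Irf2 (-3.91 ± 1.37), H2-Aa (-2.89 ± 1.14) and H2-T24 (-2.80 ± 1.13). Most of these moved with 1 array. Without untreated JAK2V617F+ replicate 2, H2-T24 was 0.046 and Irf2 was -0.68. Without untreated JAK2V617F+ replicate 1, Ifi30 was -0.38 and H2-Aa was -1.42, and without untreated JAK2V617F- replicate 3, H2-M3 was 1.69. Under TNFR1 BA, 9 genes reached this level, where 6.21% of all probe sets did (0.0871% called). Isg20 (4.21 ± 1.47), Gbp2b (3.16 ± 1.28), Ifi27 (3.41 ± 1.55) and Igtp (2.74 ± 1.26) were higher, and H2-DMb2 (-5.08 ± 1.89), Ifi27l2a (-4.24 ± 1.64), H2-Aa (-2.59 ± 1.02) and H2-Ea (-3.29 ± 1.5) headed the lower ones. Igtp was 0.89 without TNFR1 BA JAK2V617F- replicate 1, Ifi27 was 2.18 without TNFR1 BA JAK2V617F- replicate 3, and H2-Ea was -1.37 without TNFR1 BA JAK2V617F+ replicate 3. Under TNFR2 BA, 4 genes did, where 5.63% of all probe sets did (0.0387% called), with Isg20 higher (4.39 ± 1.47) and H2-Aa (-3.57 ± 1.02), H2-Ea (-3.64 ± 1.5) and Ifi202b (-2.51 ± 1.10) lower. H2-Aa thus differed in the same direction in each treatment, by -2.89, -2.59 and -3.57. Of the 8 class II chains, 8 had negative differences in untreated cells, 7 under TNFR1 BA and 6 under TNFR2 BA, with medians of -2.59, -1.51 and -2.70.

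The next comparisons asked whether blocking either TNF receptor moved the families. In JAK2V617F+ cells 0 of the 57 genes were called by limma under either antibody. Under TNFR1 BA 5 genes had an unadjusted p under 0.05, where 6.78% of all probe sets did (0.00968% called), and under TNFR2 BA 6 genes did, where 5.26% did (0.0290% called). The comparisons share the 2 untreated JAK2V617F+ arrays. Isg20 stood at 6.15 and 2.22 in untreated replicates 1 and 2, at 9.06, 7.44 and 7.25 under TNFR1 BA and at 8.54, 7.98 and 7.08 under TNFR2 BA. All 6 antibody-treated JAK2V617F+ arrays lay above both untreated ones. How many of all probe sets separate in this way was not counted. The differences were 3.73 ± 1.64 (SE) and 3.68 ± 1.64 (adjusted p = 0.705 and 0.922). They were 1.76 and 1.71 without untreated JAK2V617F+ replicate 2, the array at 2.22. In the JAK2V617F+ array that was left out, Isg20 was at 7.90, within the range of the treated arrays. In JAK2V617F- cells Isg20 was 5.92, 6.55 and 7.16 untreated, 2.31, 2.22 and 6.57 under TNFR1 BA and 2.22, 2.22 and 5.99 under TNFR2 BA, so replicates 1 and 2 were near the lowest value under both antibodies and replicate 3 was not.

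**Figure D4:**
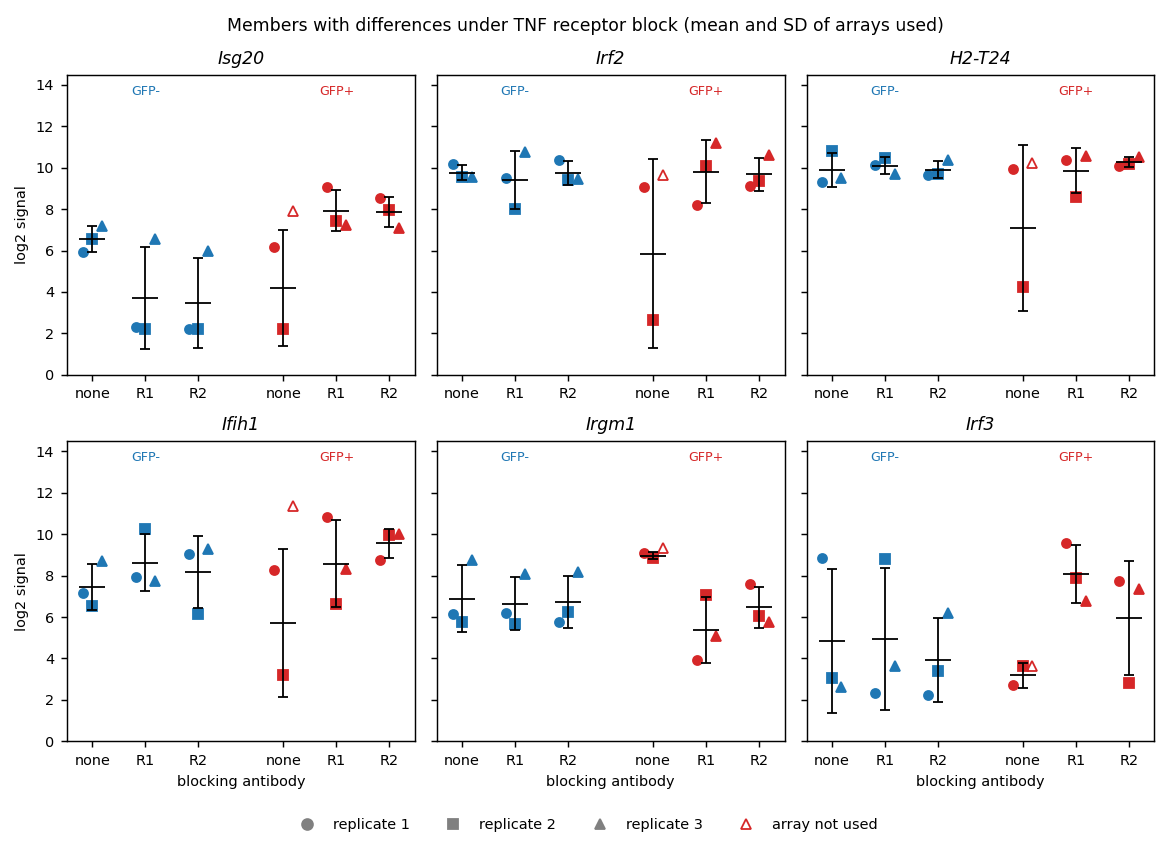
Log2 signal of 6 genes with differences under TNF receptor block (vertical axis) in JAK2V617F- (GFP-, blue) and JAK2V617F+ (GFP+, red) cells without antibody (none), with TNFR1 BA (R1) or with TNFR2 BA (R2); symbols give the replicate number, horizontal bars the mean and whiskers the SD of the arrays used, and open triangles mark the array that was left out. The low values of Irf2 (2.62), H2-T24 (4.24) and Ifih1 (3.19) in untreated JAK2V617F+ cells all belong to replicate 2.

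The differences of Irf2 and H2-T24 under block rested largely on 1 array. Irf2, which competes with Irf1 for its binding sites, was 9.09 and 2.62 in untreated JAK2V617F+ replicates 1 and 2, 8.18, 10.08 and 11.18 under TNFR1 BA and 9.11, 9.35 and 10.60 under TNFR2 BA. H2-T24 was 9.93 and 4.24 in the untreated replicates, 10.36, 8.60 and 10.58 under TNFR1 BA and 10.10, 10.18 and 10.54 under TNFR2 BA. In both genes untreated replicate 2 stood far below all other JAK2V617F+ arrays. The differences were 3.96 ± 1.37 (SE) and 3.83 ± 1.37 for Irf2 and 2.77 ± 1.13 and 3.19 ± 1.13 for H2-T24, with adjusted p-values of 0.580 to 0.799 in limma. Without that array they were 0.73 and 0.60 for Irf2 and -0.079 and 0.35 for H2-T24. With the other untreated array, replicate 1, left out instead, both genes were called under both antibodies (adjusted p from 0.00634 to 0.0150, 1 untreated array remaining).

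Irgm1, which acts in the clearance of intracellular pathogens, was 9.08 and 8.86 in untreated JAK2V617F+ cells, 3.92, 7.07 and 5.07 under TNFR1 BA and 7.58, 6.04 and 5.78 under TNFR2 BA. Its untreated arrays lay above all 6 treated ones, a separation that was not counted over all probe sets. The array that was left out, which failed the quality standards, was at 9.35. The difference under TNFR1 BA was -3.61 ± 1.37 (SE, adjusted p = 0.633, limma). Irf3, the factor activated by viral nucleic acid, was 2.74 and 3.62 untreated, 9.57, 7.89 and 6.78 under TNFR1 BA and 7.74, 2.80 and 7.35 under TNFR2 BA, a difference of 4.90 ± 2.15 under TNFR1 BA (adjusted p = 0.705). Ifih1, a cytosolic sensor of viral RNA, was 8.26 and 3.19 untreated, 10.82, 6.61 and 8.32 under TNFR1 BA and 8.75, 9.94 and 9.99 under TNFR2 BA, a difference of 3.84 ± 1.51 under TNFR2 BA (adjusted p = 0.854) that was 1.30 without untreated replicate 2. Ifi30 (2.14 ± 0.96) and Irf2bp1 (2.74 ± 1.26), which acts with Irf2 as a corepressor, were the other genes with an unadjusted p under 0.05 under TNFR2 BA. Without untreated JAK2V617F+ replicate 1, the difference of group means was -0.27 for Ifi30 and 1.78 for Irf2bp1.

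The class II chains gave no called difference under block. Of the 8 chains, 6 had positive and 2 negative differences under TNFR1 BA in JAK2V617F+ cells, and 5 and 3 under TNFR2 BA, with medians of 0.44 and 0.19 against 0.10 and 0.06 over all probe sets, and none had an unadjusted p under 0.05. For H2-Aa in JAK2V617F+ cells the 95% confidence interval ran from -2.01 to 2.77 under TNFR1 BA and from -3.13 to 1.65 under TNFR2 BA, so changes of up to several fold in either direction could not be detected.

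In JAK2V617F- cells, 0 genes were called by limma under either antibody, as were 0% of all probe sets. Under TNFR1 BA 1 gene, H2-M3 (2.60 ± 1.21, SE), had an unadjusted p under 0.05, where 3.73% of all probe sets did, and under TNFR2 BA 0 did, where 2.47% did. H2-M3 was 8.63, 7.36 and 3.12 untreated, 9.12, 9.63 and 8.15 under TNFR1 BA and 9.15, 9.04 and 7.36 under TNFR2 BA, so its untreated replicate 3 stood apart, and without that array the difference under TNFR1 BA was 0.97. Directly compared, TNFR2 BA and TNFR1 BA gave 0 genes at that level in JAK2V617F+ cells, where 4.37% of all probe sets reached it, and 3 in JAK2V617F- cells, where 3.70% did. These were Irf5 (2.96 ± 1.14) and Ifi27 (3.74 ± 1.55), higher under TNFR2 BA, and Ifi209 (-2.46 ± 1.0), with 0% of probe sets called in either genotype.

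Whether the effect of a blocking antibody differed between genotypes was tested by the interaction, for which 0 genes and 0% of all probe sets were called. For TNFR1 BA 4 genes had an unadjusted p under 0.05, where 5.22% of all probe sets did, and for TNFR2 BA 1 did, where 3.83% did. Isg20 was the gene common to both, with interactions of 6.57 ± 2.2 (SE, adjusted p = 0.918, limma) and 6.74 ± 2.2 (adjusted p = 0.997). The others for TNFR1 BA were Irf2 (4.32 ± 1.84), Gbp2b (4.50 ± 1.93) and Ifi27 (5.2 ± 2.32), of which Irf2 was 1.08 and Ifi27 was 2.67 without untreated JAK2V617F+ replicate 2.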

How the data were processed

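RNA of sorted Lin-Kit+ cells was hybridised by the authors to Affymetrix mouse expression arrays, and the deposited values are log2 signals of probe sets that came from Expression Console software per the labels. The sources used here do not give the normalization or how the 10335 deposited probe sets were chosen. The adjusted p-values and the shares of all probe sets refer to this set. The values carry no depth or detection call, so the number of arrays limits the precision. The values were used as deposited. Symbols came from the annotation of the platform, and all 57 genes matched a RefSeq gene table by Entrez ID. Groups were compared with limma 3.58.1 in R 4.3.3 (means of 6 groups, 17 arrays, eBayes with a trend, Benjamini-Hochberg adjustment over 10335 probe sets). The fit was also run on simulated data, with known differences larger than that of H2-Aa and with no experiment shared between arrays. That run does not show how smaller differences, or arrays that share an experiment, are handled. The p-values measure the spread between arrays of the same group, which come from different experiments. They do not use the fact that both genotypes of an experiment and treatment were sorted from the same culture. The main fit counts each array as independent, although the arrays come from 3 experiments.

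The genes, roles, marker lists and motifs were chosen with earlier results of these data known. Named genes were those called in any comparison, up to 12 per direction by smallest unadjusted p between genotypes and up to 4 in other comparisons, the receptors, the Irf factors, Tap2, Tapbp, the class II chains, and genes with extreme levels or ranges. Some others were named after their values were seen.

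The replicate number pairs the arrays, because the study describes 3 independent experiments whose marrow was cultured in all treatments and sorted into both genotypes. Deviations from group means correlated by 0.008, 0.071 and 0.144 on average within replicates 1, 2 and 3 and by -0.033 between numbers. The alternatives were a replicate block, all 18 arrays, fits of the compared groups alone, quantile normalization, removal of dim probe sets, no trend, array weights, the mean of probe sets per gene, the methods' t-test and leaving out arrays or experiments. The mean of probe sets per gene could not change the differences of the 57 genes, because each had a single probe set.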

Additional observations from a re-analysis of the deposited data

Results flagged for a closer look

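Values of each gene were screened within each genotype (8 JAK2V617F+ and 9 JAK2V617F- arrays) for a single array far from the rest, by Dixon's test. Of 114 groups, 19 held such an array, in 17 genes. The usual chance rate of about 1 in 20 groups assumes normally distributed values. It does not hold where the other arrays lay near the lowest value, as for Ifi209 in JAK2V617F+ cells (next value 2.22) and Iigp1 in JAK2V617F- cells (2.23). The genotypes also pool 3 treatments.

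In JAK2V617F+ cells, untreated replicate 2 was the lowest array for Irf2 (2.62), Isg20 (2.22) and H2-T24 (4.24), and untreated replicate 1 for Ifi30 (6.34) and H2-DMa (3.53). TNFR2 BA replicate 1 was the highest for Irf2bpl (7.40) and H2-Oa (9.78) and the lowest for Isg20l2 (10.24). TNFR2 BA replicate 2 was the highest for Ifi27l2a (3.91), and TNFR1 BA replicate 2 for Ifi209 (4.74) and H2-Ob (8.03).

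In JAK2V617F- cells, TNFR1 BA replicate 2 was the lowest for Irf1 (5.72) and Irf2 (7.98), and untreated replicate 3 for H2-M3 (3.12). TNFR1 BA replicate 1 was the highest for Irf2bpl (5.5) and Oas3 (5.79), TNFR1 BA replicate 3 for Ifi35 (10.69), and TNFR2 BA replicate 3 for Ifnar2 (7.13) and Iigp1 (6.55).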

How the results depend on the processing

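For the genotype over treatments, the count of genes called was 1, and it was 2 with the replicate block, 0 without a trend, 0 by the methods' t-test, unpaired or paired after Benjamini-Hochberg adjustment, and 0 to 3 when an array or a replicate number was left out. H2-Aa kept its sign throughout (-3.72 to -1.82 in leave-one-out fits). By the unpaired t-test 1 gene was called between untreated genotypes and 1 under TNFR1 BA in JAK2V617F+ cells. Leaving out arrays gave 0 to 2 calls in these 2 comparisons, 0 to 2 for TNFR2 BA in JAK2V617F+ cells and 0 to 1 for the TNFR1 BA interaction. The calls without untreated JAK2V617F+ replicate 1 rest on 1 remaining array of that group, assumed to vary like the others. The signs that reversed were those of H2-T24, which between untreated genotypes was 0.046 without untreated JAK2V617F+ replicate 2 and 0.52 without replicate 2 (range of leave-one-out values -5.92 to 0.52), and under TNFR1 BA in JAK2V617F+ cells was -0.079 without untreated JAK2V617F+ replicate 2 (range -0.079 to 5.61). The cause was not tested. Over all probe sets the replicate block moved the number called for the genotype over treatments from 37 to 67 (6 to 119 when arrays or replicates were left out, 11 by the paired t-test) and for TNFR2 BA in JAK2V617F+ cells from 3 to 0, and it changed no other call among the 57 genes than that of H2-Ea. Genes at an unadjusted p under 0.05 numbered 15, 8 and 9 between genotypes over treatments, untreated and under TNFR1 BA, and 8 to 17, 2 to 10 and 1 to 10 over the alternatives. The methods' t-test was not run for interactions.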
